A study of Homo sapiens with 21 samples.

Results

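The IFIT and IFITM genes are 2 small families of interferon-induced antiviral genes, and 7 of them were followed here: IFIT1, IFIT2, IFIT3 and IFIT5, and IFITM1, IFITM2 and IFITM3. They are 7 of the 34021 genes in the expression table of H1975, an established human lung adenocarcinoma cell line with a mutant EGFR. They were chosen by family and by measured values of these same libraries, their FPKM in the group OC against the other groups, which were known before the choice. All comparisons of their levels are therefore descriptions, and no p-value is given for them. Of the 21 samples in the series, 9 RNA-seq libraries of H1975 were used, 3 in each of 3 groups, all after 8 days. The group DMSO+EV had the vehicle DMSO with EV, which the labels do not spell out. The group OL+EV had 500 nM osimertinib, an inhibitor of mutant EGFR, with 500 nM linsitinib, an inhibitor of the IGF1R and insulin receptor kinases, and EV according to the sample titles. The group OC had 500 nM osimertinib with overexpression of cIGF1R, a circular RNA from the IGF1R gene. DMSO+EV and OL+EV are labelled as WT, and how the cells were made to overexpress cIGF1R is not given in the sources used here. No group of the series is titled as osimertinib with EV but without linsitinib. Effects of the drug and of cIGF1R cannot be told apart in OC.

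IFIT proteins are cytosolic RNA-binding proteins built from tetratricopeptide repeats. IFIT1 binds capped RNA that lacks the ribose methylation of host messages and blocks its translation, and IFIT2 and IFIT3 form complexes with it. IFITM proteins are short membrane proteins that hinder the fusion of viral envelopes with the plasma membrane or with endosomes. Both families are switched on through ISGF3, a complex of transcription factors with STAT2 and IRF9 among its subunits that binds the interferon-stimulated response element (ISRE) in promoters.

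Promoter windows are shown because the members moved together and the ISRE letters can be read in them. RefSeq windows on GRCh38.p14, from 250 bases before to 50 bases after a start site, were at hand for 5 of the 7 members, with 6 windows in all since IFIT3 has more than 1 start. IFIT2 and IFITM2 have no entry in the table. The stretches run 5′ to 3′ on the strand of the gene, from some bases before the first match to the start site, or past it to the end of a match that crosses it. Capitals mark the ISRE letters, GAAA and GAAA with any 2 bases between them, or the reverse complement, TTTC and TTTC with any 2 bases between them. IFIT1B and IFITM5, relatives that are not among the members, are shown for comparison by the stretch just before their start.
IFIT3, first start, chr10:89327829-89327996, plus strand: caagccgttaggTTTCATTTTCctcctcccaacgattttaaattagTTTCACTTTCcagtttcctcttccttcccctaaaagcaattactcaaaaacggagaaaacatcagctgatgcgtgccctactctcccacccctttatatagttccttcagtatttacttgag
IFIT3, downstream start, chr10:89332423-89332528, plus strand: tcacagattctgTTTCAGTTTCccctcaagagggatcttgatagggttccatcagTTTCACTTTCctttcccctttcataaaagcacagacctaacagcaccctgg
IFIT1B, chr10:89377964-89378055, plus strand: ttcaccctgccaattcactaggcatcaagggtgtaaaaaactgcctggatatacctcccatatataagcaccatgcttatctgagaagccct
IFIT1, chr10:89392495-89392622, plus strand: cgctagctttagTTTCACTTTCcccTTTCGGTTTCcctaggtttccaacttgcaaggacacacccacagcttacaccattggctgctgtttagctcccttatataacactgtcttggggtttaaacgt
IFIT5, chr10:89414511-89414573, plus strand: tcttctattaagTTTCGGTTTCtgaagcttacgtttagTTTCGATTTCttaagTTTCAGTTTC
IFITM5, chr11:299527-299618, minus strand: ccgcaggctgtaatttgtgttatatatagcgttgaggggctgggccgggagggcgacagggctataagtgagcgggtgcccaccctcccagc
IFITM1, chr11:313984-314043, plus strand: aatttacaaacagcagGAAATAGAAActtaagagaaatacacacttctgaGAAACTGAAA
IFITM3, chr11:320861-320924, minus strand: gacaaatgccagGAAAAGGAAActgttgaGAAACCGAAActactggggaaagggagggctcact
All 6 member windows held the ISRE letters, against 3.57% of all 35116 windows. With a longer form that adds CT after the second GAAA, read on both strands and contained in the shorter one, the count stayed at 6 of 6 against 0.273% of all windows. IFIT5 held 3 matches and each of the other member windows held 2. The IFIT1 matches lay between 116 and 94 bases before the start, those of IFITM3 between 52 and 26 bases before it, and the last matches of IFIT5 and IFITM1 crossed the start. Neither IFIT1B nor IFITM5 had a match. The letters of the GAS element, TTC and GAA with any 3 bases between them, which read the same on both strands, were in the window of IFITM1, where they share bases with the second ISRE match, against 7.66% of all windows. A match describes letters in these windows and shows no binding.

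Levels are given as FPKM, fragments per length of gene and size of library, a unit that the file does not name but that its values point to. The columns summed to between 338034 and 381311 FPKM in OC and to between 423319 and 474156 in the other libraries, and the read depth is unknown. Libraries of 1 group correlated at r = 0.986 to 0.994 over the 13775 genes tested, and libraries of different groups at 0.817 to 0.929. DMSO+EV replicate 2 stood apart in RN7SL1, a noncoding RNA of the signal recognition particle, at 443 FPKM against 46.4 and 36.1 in the other libraries of its group, and so did OC replicate 1, at 53.2 against 3.16 and 6.37. IGF1R, the gene that gives rise to the overexpressed circle, stood at 81.4, 82.3 and 101 FPKM in the 3 OC libraries and at 3.56 to 4.41 in the other 6, without separation of linear from circular RNA. The labelled origin in lung epithelium showed in the 6 epithelial keratin and adhesion markers (summed to 11203 to 15201 FPKM per library), while the alveolar markers NKX2-1, SFTPB and SFTPC were near 0, with means of at most 0.0741 FPKM in any group. The fourth alveolar marker, NAPSA, had means of 0.868, 1.62 and 0.733 FPKM in DMSO+EV, OL+EV and OC, and was called higher in OL+EV than in both other groups. It passed the filter of 1 FPKM in 3 libraries only through OL+EV, so its higher level there follows from the filter. PTPRC, the defining marker of leukocytes, had means of at most 0.0146 FPKM. Summed leukocyte markers ranged from 1.44 to 1.99 FPKM in DMSO+EV, 1.18 to 2.25 in OL+EV and 2.27 to 4.25 in OC, mostly CD14. Fibroblast markers summed to 3.35 to 3.7, 3.2 to 3.54 and 5.53 to 6.05 FPKM in the same order, nearly all COL1A1. Endothelial markers summed to 3.55 to 4.08, 0.135 to 0.207 and 0.736 to 0.955. In DMSO+EV the endothelial sum was mostly CDH5, with means of 3.37, 0.114 and 0.482 FPKM in the same order. PECAM1 had means of 0.347, 0.0303 and 0.255, and VWF of 0.0229, 0.0325 and 0.131. Whether replicates were separate cultures is not stated, and the errors cover only differences among the sequenced libraries, possibly technical ones. In bulk RNA, more expressing cells and more RNA per cell cannot be told apart.

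IFIT1, the founding member that senses RNA caps, was nearly silent outside OC. It stood at 0.56, 0.312 and 0.392 FPKM in DMSO+EV, at 0.641, 0.718 and 1.16 in OL+EV, and at 320, 330 and 375 in OC. The lowest OC library was far above every other library. IFIT2, which binds RNA rich in adenine and uracil, read 0.649, 0.797 and 0.676 FPKM in DMSO+EV, 1.1, 1.34 and 1.52 in OL+EV, and 671, 677 and 725 in OC. It was the highest of the 4 IFIT genes in OC, and in DMSO+EV its range overlapped that of IFIT5. IFIT3, which stabilises IFIT1 on its RNA, had 1.03, 0.771 and 1.07 FPKM in DMSO+EV, 1.62, 1.66 and 1.1 in OL+EV, and 454, 469 and 475 in OC. Its OC libraries lay within a coefficient of variation of 2.37%, the tightest of the 7 genes in that group. IFIT5, a relative that works alone and also binds RNA with a triphosphate end, differed from the other IFITs. It held 0.645, 0.638 and 1.05 FPKM in DMSO+EV, 0.968, 0.876 and 0.669 in OL+EV, and only 15.3, 16.2 and 16.9 in OC. The DMSO+EV and OL+EV libraries of IFIT5 overlapped, and the OC libraries lay above both.

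The IFITM genes started from higher and unequal levels. IFITM1, which acts mainly at the plasma membrane, was at 4.16, 3.82 and 3.57 FPKM in DMSO+EV, 9.3, 8.94 and 9.07 in OL+EV, and 1314, 1311 and 1594 in OC. The 3 groups of IFITM1 did not overlap, in the order DMSO+EV, OL+EV, OC. IFITM2, an endosomal protein close in sequence to IFITM3, stood at 2.6, 2.52 and 2.62 FPKM in DMSO+EV, 5.39, 5.43 and 4.61 in OL+EV, and 132, 128 and 159 in OC. It followed the same order, also with no overlap. IFITM3, the endosomal restriction factor of influenza virus, was the exception in being abundant already without drug: 153, 147 and 130 FPKM in DMSO+EV, 189, 203 and 191 in OL+EV, and 2332, 2420 and 2971 in OC. In DMSO+EV it ranked between 326 and 407 of the 34021 genes by FPKM in the libraries, and in OC between 8 and 10.

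**Figure D1:**
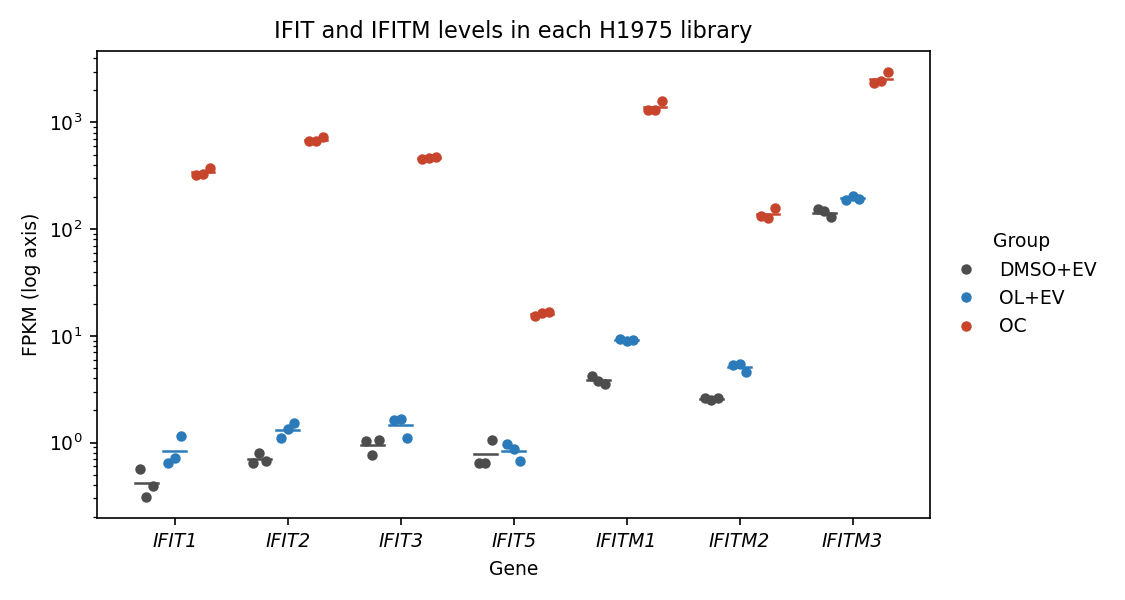
FPKM on a log axis for each of the 7 genes, with 1 point per library, short lines at the group means and colours for DMSO+EV, OL+EV and OC (3 libraries each). All OC points lie above the other points of the same gene, and IFIT5 is lowest in OC at 15.3 to 16.9 FPKM.

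Between OC and DMSO+EV, all 7 members rose, and all 7 had libraries that did not overlap between the groups. The fit over the whole table (limma on log2 of FPKM + 1, Benjamini-Hochberg adjusted p under 0.05) called 33.1% of all genes higher in this comparison, and 33.3% of genes were higher without overlap. All 7 log2 changes were at least 1, as were those of 10.4% of all genes. The members' count is a description, since this comparison served to choose them. The ratio of mean FPKM was 977 for IFIT2, 810 for IFIT1, 487 for IFIT3 and 366 for IFITM1. It was 54.2 for IFITM2, 20.8 for IFIT5 and 18 for IFITM3. On the log2 scale the changes were 8.66 (SE 0.09) for IFIT2, 8.18 (SE 0.1) for IFITM1, 7.91 (SE 0.12) for IFIT1 and 7.9 (SE 0.11) for IFIT3. They were 5.29 (SE 0.1) for IFITM2, 4.15 (SE 0.12) for IFITM3 and 3.28 (SE 0.11) for IFIT5. The median over the members was 7.9, beside -0.03 over the 13775 genes tested. By this measure IFIT2 was 1st of all genes tested, IFITM1 4th, IFIT1 6th and IFIT3 7th, while IFITM2 was 32nd, IFITM3 76th and IFIT5 131st. The added 1 FPKM makes these log2 values smaller than the ratios for genes that were low in DMSO+EV. With 0.1 FPKM added the change of IFIT1 was 9.38 and that of IFIT5 4.24, and with 5 FPKM added they were 5.99 and 1.87. Without DMSO+EV replicate 2 or OC replicate 1, and without any of the other libraries in turn, the log2 changes stayed between 8.63 and 8.7 for IFIT2, 4.05 and 4.22 for IFITM3 and 3.22 and 3.38 for IFIT5.

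All 7 members were also higher in OC than in OL+EV, with no overlap, where 25.9% of all genes were called higher and 29.6% were higher without overlap. All 7 log2 changes again were at least 1, as were those of 6.58% of all genes. The ratios of mean FPKM ran from 13.3 for IFITM3 to 524 for IFIT2, and were 407 for IFIT1, 319 for IFIT3, 155 for IFITM1, 27.2 for IFITM2 and 19.3 for IFIT5. This comparison and the previous one share the OC libraries, so their likeness is no separate evidence. Both OC and OL+EV had osimertinib, but they differ in linsitinib, in the EV label and in cIGF1R, which cannot be told apart here. The log2 changes were 8.22 (SE 0.09) for IFIT2, 7.12 (SE 0.1) for IFITM1 and 3.22 (SE 0.11) for IFIT5, and the median over the members was 7.12, beside -0.09 over all genes tested.

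The group with osimertinib and linsitinib differed from DMSO+EV far less. Of the 7 members, 6 were called higher and IFIT5 did not pass, and the same 6 had libraries without overlap. In this comparison 29% of all genes were called higher and 34.3% were higher without overlap. Only IFITM1 was called with a log2 change of at least 1, as were 3.65% of all genes. IFITM1 had the largest log2 change at 1.06 (SE 0.1), a ratio of means of 2.37, followed by IFITM2 at 0.78 (SE 0.1) and a ratio of 1.99. IFITM3 and IFIT2 both stood at 0.44 (SE 0.12 and 0.09), IFIT1 at 0.36 (SE 0.12), IFIT3 at 0.33 (SE 0.11) and IFIT5 at 0.05 (SE 0.11). The median was 0.44, beside 0.05 over all genes tested. The IFITM genes had a median of 0.78 and the IFIT genes one of 0.35, a difference that was not tested. IFIT1 and IFIT5 passed the filter of 1 FPKM in 3 libraries only with the help of OC, where they were high, and the IFIT values in both groups of this comparison were at most 1.66 FPKM. The calls of IFIT1 and IFIT3 were lost without DMSO+EV replicate 2 (log2 changes of 0.31 and 0.26). That of IFIT1 was also lost without OL+EV replicate 3 (0.24), and that of IFIT3 without OL+EV replicate 1 or 2 (0.28 and 0.26). Both were lost with no filter on low values, where 4 of the 7 members were called. Adding 5 FPKM in place of 1 left only the 3 IFITM genes called.

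**Figure D2:**
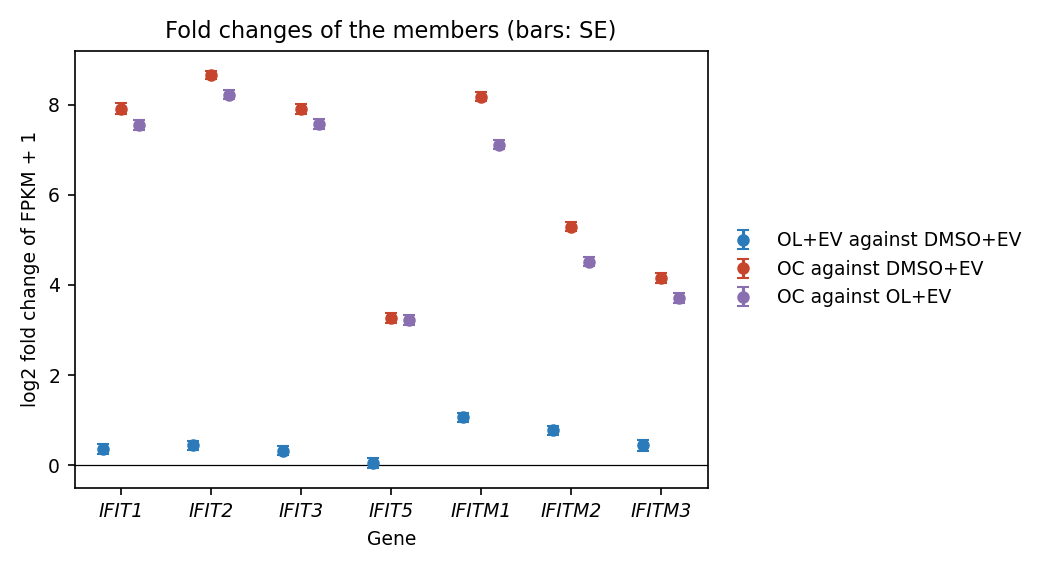
log2 fold changes of FPKM + 1 for the 7 genes in the 3 comparisons, as points with bars of 1 SE from the limma fit. The comparisons with OC lie between 3.22 and 8.66, and that of OL+EV with DMSO+EV between 0.05 and 1.06.

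The order of the members by level was not the same in the groups. In DMSO+EV it was IFITM3 at 143 ± 12.1 FPKM, IFITM1 at 3.85 ± 0.299, IFITM2 at 2.58 ± 0.0523, IFIT3 at 0.957 ± 0.162, IFIT5 at 0.778 ± 0.236, IFIT2 at 0.707 ± 0.079 and IFIT1 at 0.421 ± 0.127 (SD, n = 3). The ranges of IFIT3 and IFIT5 overlapped, as did those of IFIT5 and IFIT2. In OL+EV the IFITM order was the same, with no overlap between neighbours, but each IFIT overlapped the next, from IFIT3 at 1.46 ± 0.317 through IFIT2 at 1.32 ± 0.211 and IFIT1 at 0.838 ± 0.278 to IFIT5 at 0.838 ± 0.153. In OC no neighbours overlapped: IFITM3 at 2574 ± 346, IFITM1 at 1407 ± 162, IFIT2 at 691 ± 29.7, IFIT3 at 466 ± 11, IFIT1 at 341 ± 29.6, IFITM2 at 140 ± 16.5 and IFIT5 at 16.1 ± 0.776 (SD, n = 3). IFIT2, IFIT3 and IFIT1 thus stood above IFITM2 in OC and below it in both other groups.

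The make-up of each family shifted with these levels. IFITM3 was 95.7% ± 0.217 of the summed IFITM level in DMSO+EV, 93.2% ± 0.329 in OL+EV and 62.4% ± 0.632 in OC (SD, n = 3), and IFITM1 took 2.57% ± 0.0704, 4.37% ± 0.232 and 34.2% ± 0.548. The IFITM2 share stayed small, at 1.73% ± 0.169, 2.47% ± 0.199 and 3.39% ± 0.0895. Within the IFIT genes, IFIT5 held 26.9% ± 5.48 of the sum in DMSO+EV and 1.07% ± 0.0209 in OC, and IFIT2 went from 25.1% ± 5.7 to 45.6% ± 0.303. Summed over the 7 genes, the share of the FPKM total of a library was 0.034% ± 0.00155 in DMSO+EV, 0.0496% ± 0.0016 in OL+EV and 1.59% ± 0.0586 in OC (SD, n = 3). OC replicate 3 held the highest FPKM of its group for all 7 members, and its FPKM total was also the highest of the group. As a share of that total, 4 of the 7 were highest there, namely IFIT1 and the IFITM genes.

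**Figure D3:**
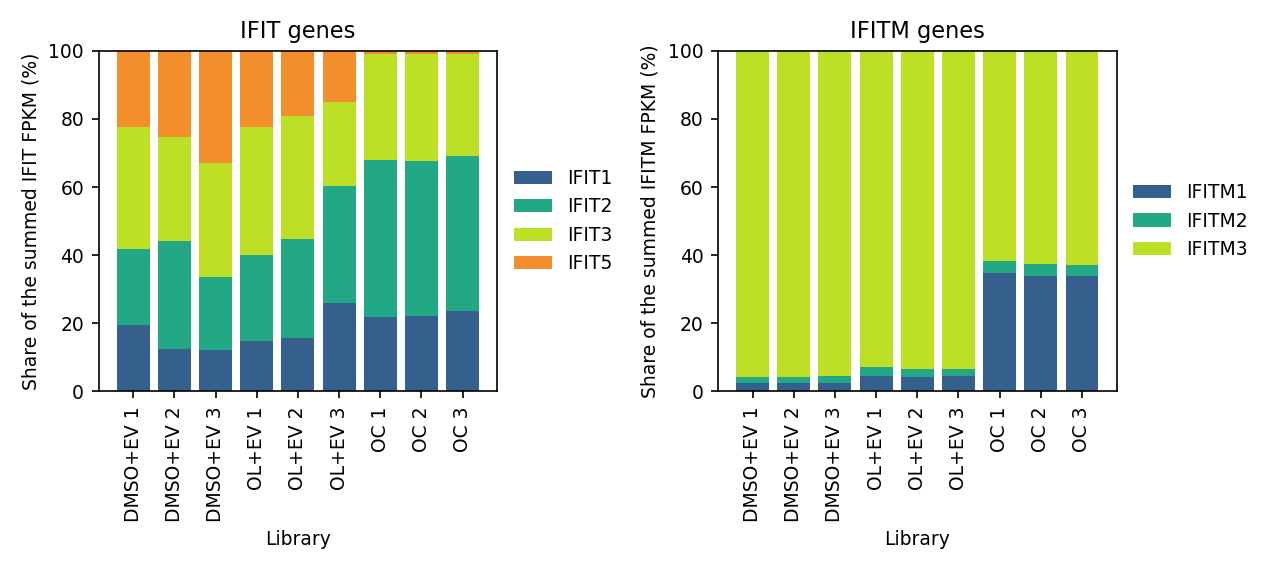
Share in percent of each gene in the summed FPKM of its family, for the IFIT genes (left) and the IFITM genes (right), with 1 stacked bar per library. IFITM3 falls from a mean of 95.7% in DMSO+EV to 62.4% in OC, and IFIT5 from 26.9% to 1.07%.

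Genes with the profile most like that of each member were found among all tested genes other than the 7 members by the Euclidean distance between centred log2 values over the 9 libraries. Nearest of these to IFIT1 and to IFIT3 was OAS2, a sensor of double-stranded RNA that makes oligoadenylates, at distances of 0.616 and 0.536. Nearest to IFIT2 was OASL, an inactive relative of that enzyme (0.641). IFITM1 was closest to the mitochondrial survival protein gene IFI6 (0.643), IFITM2 to the nonclassical MHC class I gene HLA-F (0.448) and IFITM3 to the apolipoprotein gene APOL1 (0.407). IFIT5 lay nearest to TRIM5, a restriction factor of retroviral capsids (0.283), then to SP100, a component of nuclear bodies (0.354), and to the ceruloplasmin gene CP (0.356). TNFSF10, which encodes the death ligand TRAIL, was among the 3 nearest non-members for IFIT1, IFIT3 and IFITM1. Among the members themselves IFIT1 and IFIT3 were closest (0.603), IFITM1 was nearer to IFIT1 (0.928) than to IFITM2 (3.9), and IFIT5 was nearest to IFITM3 (1.19). The distances rest on 3 groups and mostly reflect the size of the change in OC.

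In RefSeq on GRCh38.p14 the IFIT genes form a row on chromosome 10, with IFIT2 from 89302046 to 89309271, IFIT3 from 89327997 to 89340968, IFIT1 from 89392623 to 89406487 and IFIT5 from 89414568 to 89420997. IFIT1B, which lies between IFIT3 and IFIT1, was at 0 in all libraries of DMSO+EV and OL+EV and at 0.166, 0.0313 and 0.139 FPKM in OC. Of the 3 protein-coding neighbours on each side, the lysosomal lipase gene LIPA was higher in OC, at 176, 184 and 179 FPKM against 9.68, 13.2 and 16.4 in DMSO+EV (log2 change 3.71, SE 0.15). LIPA is annotated from 89213572 to 89414679 on the opposite strand, a span that overlaps all 5 genes of the row. The use of strand in counting is not given in the sources used here, so reads of LIPA and of the IFIT genes cannot be told apart with certainty. The death receptor gene FAS stood at 3.25 ± 0.313 FPKM in OC, 0.365 ± 0.135 in DMSO+EV and 0.0823 ± 0.0591 in OL+EV (SD, n = 3). FAS passed the filter only through OC, so its rise there follows from the filter. On the other side the pantothenate kinase gene PANK1 stood at 1.78 ± 0.289, 1.8 ± 0.182 and 1.82 ± 0.243 FPKM in DMSO+EV, OL+EV and OC, SLC16A12 was near 0, and the mitotic kinesin gene KIF20B fell in OC (log2 change -1.96, SE 0.1). KIF20B fell in OL+EV too (-2.14, SE 0.1) and was not called between OC and OL+EV. It passed the filter only through DMSO+EV, so its fall in both groups follows from the filter. CH25H, the cholesterol hydroxylase gene on the LIPA side, was at 0 in DMSO+EV and OL+EV and at 0.0306, 0.0181 and 0 FPKM in OC.

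The IFITM genes lie on chromosome 11, with IFITM2 from 307816 to 309395, IFITM1 from 314040 to 315272 and IFITM3 from 319676 to 320860. IFITM5, the bone-specific gene at the end of the row, was at 0 in OC and had means of at most 0.0189 FPKM in the other groups. Of the 5 tested neighbours 1 rose, 3 fell and 1 did not pass in OC against DMSO+EV, where 33.1% of all genes rose and 35.8% fell. B4GALNT4, a glycosyltransferase gene, fell (log2 change -1.27, SE 0.12), as did the proteasome subunit gene PSMD13 (-1.04, SE 0.11) and the desmosomal gene PKP3 (-0.35, SE 0.09). In OL+EV PSMD13 fell too (-0.61, SE 0.11), while B4GALNT4 and PKP3 did not pass. PGGHG, a glucosidase of hydroxylysine-linked sugars, rose in OC and in OL+EV alike, by 1.21 and 1.2 (SE 0.12 for both), and SIGIRR, an inhibitory receptor of the interleukin family, did not pass in OC (-0.08, SE 0.11). SIGIRR rose in OL+EV (0.71, SE 0.11). IFITM10, a distant relative further along the chromosome, was highest in OL+EV, at 4.17 ± 0.39 FPKM against 3.02 ± 0.51 in OC and 1.12 ± 0.0566 in DMSO+EV (SD, n = 3). It rose in both treated groups and was lower in OC than in OL+EV (log2 change -0.37, SE 0.11). IFITM2 and IFITM3 are close copies, and IFITM1 shares much of their sequence, so the split of reads between them is uncertain. Of 11 pseudogene rows of both families, only that of IFITM3P2 reached 1 FPKM, with a mean of 2.01 in OC against 0.0728 in DMSO+EV.

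**Figure D4:**
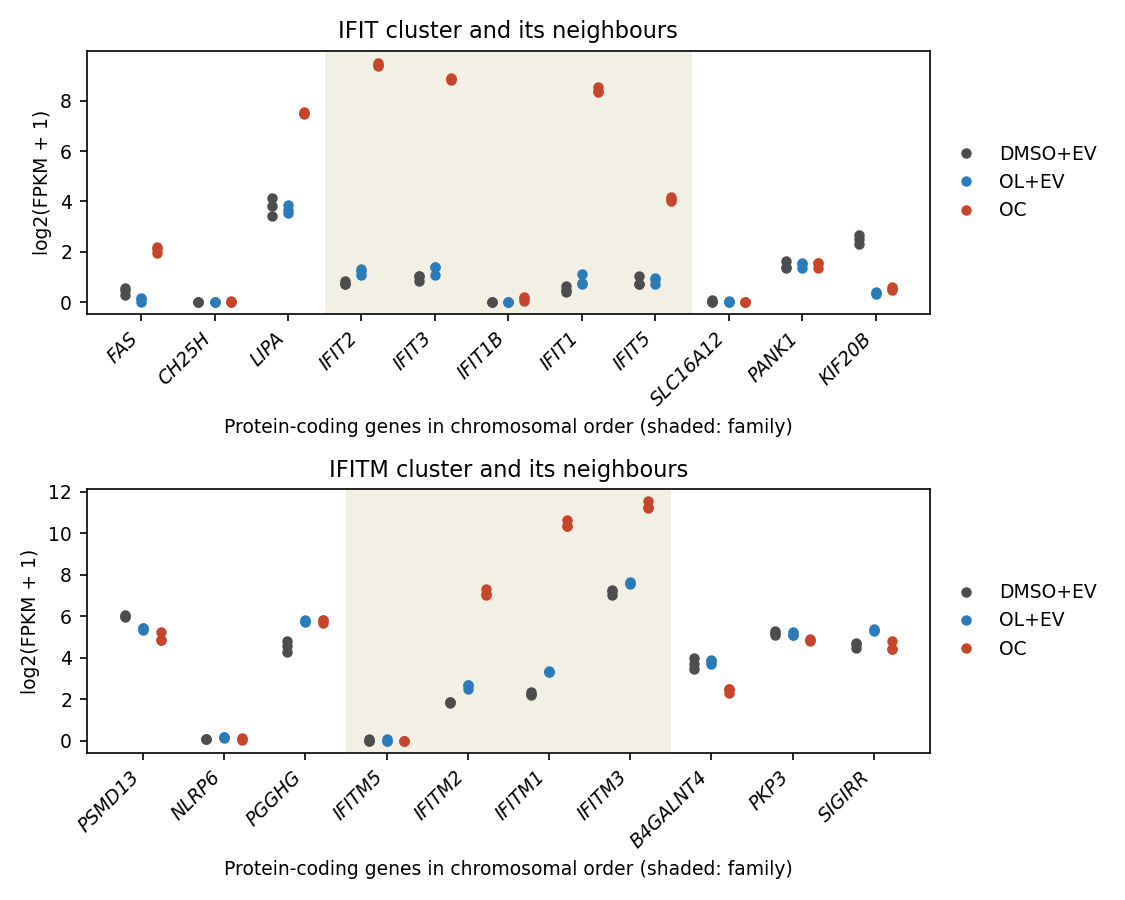
log2(FPKM + 1) of the genes in and around the IFIT row (top) and the IFITM row (bottom), in chromosomal order with equal spacing, with 1 point per library and the families shaded. In OC each member lies above the neighbours of its row, except that LIPA, at 176 to 184 FPKM, lies above IFIT5.

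The rest of the interferon pathway was read from lists drawn up with the earlier results known, so their counts are descriptions too. Of all genes tested, 33.1% were called higher and 35.8% lower in OC against DMSO+EV. In OL+EV against DMSO+EV these shares were 29% and 23.5%. Of the interferon ligands, IFNB1 and the type III genes were at or near 0 outside OC, whereas IFNE, a type I interferon of epithelia, was not. IFNL1, a type III interferon, stood at 17.9, 16.4 and 19.3 FPKM in OC, at 0 in DMSO+EV and at 0, 0.125 and 0 in OL+EV. IFNB1, the type I interferon beta, was at 2.03, 1.72 and 2.43 FPKM in OC and listed at 0 in the other 6 libraries. Of 5 ligands tested 4 rose in OC against DMSO+EV, the others being IFNL2 and IFNL3, near-identical copies at 9.26 ± 1.59 and 9.8 ± 1.87 FPKM (SD, n = 3), and IFNE did not pass. IFNE stood at 1.91 ± 0.706 FPKM in DMSO+EV, 2.47 ± 0.308 in OL+EV and 1.37 ± 0.162 in OC (SD, n = 3), and was lower in OC than in OL+EV. IFNA1 did not reach the filter, with means of 0.406, 0.305 and 0.121 FPKM in the same order. OL+EV and DMSO+EV could not be compared for 4 of the 5, which passed the filter through OC alone. Those 4 are the ligands that rose in OC, so that count follows from the filter. Of 9 receptors and kinases 7 rose in OC, with small changes (median 0.65). They were led by JAK2 at 2.04 ± 0.178 against 0.131 ± 0.0965 FPKM and JAK1 at 47 ± 5.68 against 21.2 ± 3.6. JAK2 passed the filter only through OC, so its rise there follows from the filter. IFNAR2 and TYK2 did not pass (-0.15 and 0.1 on the log2 scale). In OL+EV against DMSO+EV 4 of the 9 rose, namely IFNAR2, IL10RB, JAK1 and TYK2, IFNGR1 fell and 4 did not pass, JAK2 among them. The IL10RB libraries of these groups overlapped.

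Of 7 genes of ISGF3 and the IRF factors, 6 rose in OC. Of all genes tested, 33.1% rose in OC and 29% in OL+EV against DMSO+EV. IRF9, the DNA-binding subunit of ISGF3, was at 161, 160 and 159 FPKM in OC, and it was also higher in OL+EV (41.1, 40.8 and 43) than in DMSO+EV (18.7, 14.8 and 13.9). STAT2 was at 112 ± 10.5, 14.5 ± 0.576 and 7.98 ± 0.309 FPKM in OC, OL+EV and DMSO+EV (SD, n = 3), and it too rose in OL+EV. IRF3 was the 1 that fell in OC against DMSO+EV, where the median log2 change was 3.27, and 5 of the 7 rose in OL+EV, with a median of 0.82. The IRF3 libraries overlapped, at 74.3, 74.9 and 96.7 FPKM in OC against 93.1 to 102 in DMSO+EV. IRF7 had the largest change in OC (4.85, SE 0.09), then IRF1 among the IRF genes (3.38, SE 0.1). IRF2 changed by 1.37, IRF5 by 0.23 and IRF3 by -0.28.

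Most sensing and feedback genes rose in OC as well, where 33.1% of all genes tested rose. In OL+EV against DMSO+EV that share was 29%. Of 10 sensing genes 9 rose in OC against DMSO+EV (median 2.46) and MAVS, the mitochondrial adaptor, did not pass (-0.06). IFIH1, which encodes the sensor MDA5, changed by 5.34 and DDX58, which encodes RIG-I, by 5.21. Then came ZBP1 (4.1), TLR3 (3.22), DHX58 (2.74), STING1 (2.18), IKBKE (1.85), TBK1 (0.43) and CGAS (0.31). ZBP1 passed the filter only through OC, so its rise there follows from the filter. The CGAS libraries of OC and DMSO+EV overlapped. In OL+EV 6 of the 10 rose and CGAS and STING1 fell, by 0.999 and 0.23 on the log2 scale. Among 6 feedback genes 5 rose in OC, led by USP18, the protease that shuts off the interferon receptor, at 90.2 ± 4.05 against 2.04 ± 0.195 FPKM (SD, n = 3), while SOCS3 did not pass (-0.18). The others were SOCS1 (2.02), PTPN6 (0.75), PIAS1 (0.54) and PTPN2 (0.54). In OL+EV against DMSO+EV PTPN6 (0.84), PIAS1 (0.6) and PTPN2 (0.25) rose too. SOCS3 fell there (-0.43), and USP18 and SOCS1 did not pass, SOCS1 having passed the filter only through OC. The rise of SOCS1 in OC therefore follows from the filter. Between OC and OL+EV neither PTPN6 nor PIAS1 was called. All 20 other antiviral effectors rose in OC against DMSO+EV, with a median of 6.23, led by IFI27 (8.62), OASL (8.51), IFI6 (8.16) and OAS2 (7.69). In OL+EV 11 of the 20 rose, OAS3, named after its values were seen, fell, and 8 did not pass (median 0.37). However, 9 of the 20, with IFI27, OASL and OAS2 among them, passed the filter only through OC, so their rise in OC follows from the filter. Of the other 11, 8 rose, 1 fell and 2 did not pass in OL+EV (median 0.62). There IFI6 was at 13.8 ± 0.492 against 4.36 ± 0.185 FPKM (SD, n = 3). Of the 17 effectors with a promoter window, 13 held the ISRE letters. So did 4 of 9 ligands, 2 of 6 sensing genes, 1 of 5 feedback genes and 1 of 4 cap and translation partners. None was found in 4 ISGF3 and IRF genes, 8 receptors and kinases and 7 IFITM handling factors. These differences were not tested. The matched ligands include IFNA1, which had a lower mean in OC, and the matched partner is EIF3C, which fell in OC. Of all windows 3.57% held the letters, a share counted by window and not by gene.

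Among 6 cap and translation partners of IFIT proteins, 2 rose and 2 fell in OC against DMSO+EV. CMTR1, the enzyme that adds the cap ribose methylation which IFIT1 reads, was at 39.3, 38.1 and 36 FPKM in OC, against 8.58, 8.73 and 7.91 in DMSO+EV and 10.8, 9.84 and 10.2 in OL+EV. It rose in both (log2 changes 2.04 and 0.26, SE 0.08 for both). The other cap enzymes had log2 changes of 0.28 for RNMT, which passed, and of -0.1 for CMTR2 and -0.22 for RNGTT, which did not. The RNMT libraries of OC and DMSO+EV overlapped. The translation factor subunits EIF3C and EIF3E, of the complex that IFIT1 and IFIT2 bind, fell in OC by 1.63 and 1.11 on the log2 scale, and EIF3C has a near-identical copy. In OL+EV EIF3C fell too (-0.61), and EIF3E did not pass (-0.23). Of 7 factors that handle IFITM proteins, NEDD4, a ubiquitin ligase of IFITM3, and ZDHHC20, a palmitoyltransferase, rose in OC (0.43 and 0.37). The demethylase gene KDM1A and AP2M1, the adaptor subunit that takes IFITM3 into endosomes, fell (-0.70 and -0.53). KDM1A fell in OL+EV too (-0.65), where AP2M1 did not pass (-0.07). ZMPSTE24, VAPA and SETD7 did not pass (-0.29, 0.25 and 0.17). The pathway, partner and related genes tested were 71, with IFITM10 included. Of the 71, 56 rose and 5 fell in OC against DMSO+EV, where 33.1% and 35.8% of all genes did. In OL+EV against DMSO+EV 31 rose and 7 fell, where 29% and 23.5% of all genes did. Between OC and OL+EV 51 were higher and 9 lower in OC, beside 25.9% and 34.8% of all genes. Only 55 of the 71 passed the filter without OC. The rest entered by being high in OC, so their rise in both comparisons with OC follows from the filter.

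**Figure D5:**
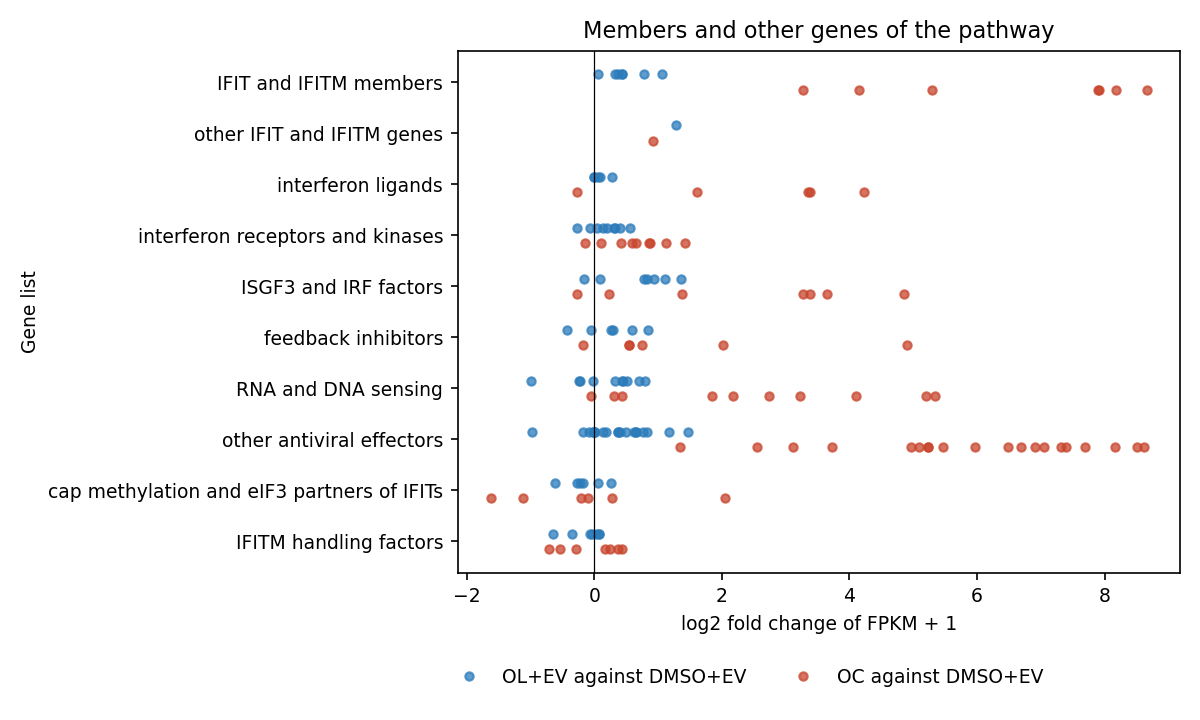
log2 fold changes of FPKM + 1 for the 7 members and for each list of pathway and partner genes, with 1 point per tested gene, for OL+EV and for OC against DMSO+EV. The members reach 3.28 to 8.66 in OC, a span that the other antiviral effectors share in part, while receptors, kinases and handling factors stay between -0.70 and 1.43.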

How the data were processed

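The deposited table gave values of 9 H1975 RNA-seq libraries by gene symbol. Each column was matched to its sample by title. The values are FPKM as far as they show, made by the authors in a way that the file header does not name. They are fractional, with unequal totals and no steps of whole reads in low genes, so no counts were recovered. Bowtie2 2.1.0, STAR, edgeR and hg38 stand in the submitters' processing notes with no role. No source used here gives the counter, annotation or use of strand. The labels' single extraction protocol names RNase R, which digests linear RNA, and 3 days of drug, while these samples are labelled 8 days, so its use here is not settled. Another 12 libraries, of circular RNA, were left out. FPKM is relative to each library.

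Genes with at least 1 FPKM in at least 3 libraries (13775 of 34021) entered 1 limma 3.58.1 fit on log2(FPKM + 1), under R 4.3.3 (group as factor, trend, robust variance, 9 libraries), with Benjamini-Hochberg adjustment over all of them and a threshold of 0.05. The code was tested on simulated data. Figures and motif searches used Python 3.11.15. The members and lists were chosen with earlier results of these data known. A gene of the lists is not reported here. Named genes followed a rule: all members, relatives, the 3 nearest profiles per member, 3 neighbours on each side, and list members (up to 4 in lists over 10 genes, by change in OC). Alternatives were other scalings, filters, pseudocounts, a fit of the compared groups, a replicate block, a fold threshold and leaving out each library.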

Additional observations from a re-analysis of the deposited data

How the results depend on the processing

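The 7 members kept their direction and their call in both comparisons with OC under all alternatives run. In OL+EV against DMSO+EV the 6 called higher became 3 with 5 FPKM added and 1 with an absolute log2 fold change of at least 1, and 4 to 6 with 1 library left out. The IFIT5 log2 change there was 0.05 with all libraries and -0.0023 to 0.16 with 1 left out, lowest without DMSO+EV replicate 2. When only those groups were fitted, IFIT1 and IFIT5 missed the filter. With a fold change of at least 1, the pathway genes called higher and lower went from 31 and 7 to 5 and 0 in OL+EV against DMSO+EV, those lower in OC against DMSO+EV from 5 to 2, and those lower in OC against OL+EV from 9 to 1. Median-of-ratios rescaling raised the 7 lower in OL+EV to 12 (the cause was not tested), and the filter at 5 FPKM, which tests fewer genes, reduced the 9 lower in OC against OL+EV to 5. Over all genes, the fold threshold left 503 higher and 763 lower in OL+EV against DMSO+EV (from 3999 and 3242), 1433 and 1571 in OC against DMSO+EV (from 4563 and 4936) and 907 and 603 in OC against OL+EV (from 3568 and 4788). The filter at 5 FPKM, with 8527 genes tested, left 3238 and 3148 lower in the comparisons of OC with DMSO+EV and OL+EV. Median-of-ratios rescaling moved the share of calls that were higher from 42.7% to 54.9% in OC against OL+EV and moved the median log2 change of all genes there from -0.09 to 0.03. Without 1 OC library the pathway genes higher in OC against DMSO+EV were 39 to 40 of 57 tested, since genes seen only in OC then missed the filter. Same-numbered libraries did not deviate together (r from -0.315 to 0.0358 over genes), and not every library correlated best with its own number. Deviations from a group mean cancel within the group, so this check cannot exclude that the numbers pair the samples. With a replicate block 6 members and 3757 genes were called higher in OL+EV against DMSO+EV, 7 and 4404 in OC against DMSO+EV, and 7 and 3405 in OC against OL+EV. Depth is unknown, so how far it limits the IFIT values near 1 FPKM cannot be given.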
